A study of Mus musculus with 24 samples.

Results

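The 8 genes described here set the brake on the G1 phase of the cell cycle in mouse embryonic fibroblasts. They are the INK4 inhibitors Cdkn2a, Cdkn2b, Cdkn2c and Cdkn2d, the KIP inhibitor Cdkn1b, and the pocket protein genes Rb1, Rbl1 and Rbl2. They were chosen by gene symbol, each matched 1 entry of the deposited table, and together they are 8 of its 47937 genes. All 8 passed the filter on low counts, with 156 counts in the lowest library of the weakest member (Cdkn2d), and were tested among 18565 genes.

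INK4 proteins bind the kinases Cdk4 and Cdk6 and keep D cyclins from activating them, whereas the KIP protein p27, the product of Cdkn1b, acts mainly on cyclin E and cyclin A complexes of Cdk2. The pocket proteins bind E2F transcription factors and hold back genes of DNA replication and mitosis until cyclin-dependent kinases phosphorylate them. Cdkn2a makes unrelated proteins from separate first exons, the INK4 inhibitor p16Ink4a and p19Arf, which binds Mdm2 and thereby stabilises p53. In cultured fibroblasts Cdkn2a and Cdkn2b are known for their part in growth arrest, and the study asked what remains of heterochromatin when the enzymes that methylate histone H3 at lysine 9 (H3K9) are removed.

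RNA was sequenced from 24 cultures, 3 in each of 8 conditions, all derived from the fibroblast clone E25, which carries a floxed Eset1 (Setdb1) allele and a Cre recombinase that 4-hydroxytamoxifen (4-OHT) activates. WT is E25 without 4-OHT and E1 is E25 after 1 µM 4-OHT. E2 is clone A4, mutant for Eset2 (Setdb2), without 4-OHT, and E1E2 is A4 after it. E1 S1S2 is clone B1, mutant for Suv39h1 and Suv39h2, and 6KO1 is its descendant B1A6, in which Eset2, G9a (Ehmt2) and Glp (Ehmt1) were inactivated as well. E1E2 G9Gl is a descendant of A4 mutant for G9a and Glp, and 6KO2 is its descendant E2F4, also mutant for Suv39h1 and Suv39h2. These 4 conditions were all sampled after 4-OHT, so both 6KO lines lack all 6 enzymes and were reached in a different order. The treatment field of the labels names 4-OHT for every sample, but the titles call the libraries of WT and of E2 controls, and the titles were followed. Every genotype is 1 clone and the mutant lines were kept under puromycin selection. The p-values therefore measure the spread between cultures of a clone, and the mutation and the history of a clone cannot be told apart.

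The libraries held 24737307 to 37419816 counts, of which 19541909 to 31489070 were on genes. Replicate 2 of WT lay farthest from its condition, with a mean absolute deviation of 0.235 on the log2 scale over all tested genes against 0.106 to 0.175 in the other libraries, and replicate 2 of E2 was high for several of the inhibitors described here. Transcript levels of the targeted genes followed the labels where frameshifts had been made in Eset2, G9a and Glp, with 9.39 to 16.8 TMM-scaled CPM (counts per 1e6 gene counts) of Setdb2 in the lines mutant for it against 28.4 to 32.5 in WT (it was at 18.7 to 20.5 CPM in E1 S1S2, which carries no mutation of it). Suv39h2 was not lower in E1 S1S2 (61.2 to 73.1 CPM) than in WT (36.7 to 43.3 CPM), although Suv39h1 was (49.6 to 50.7 against 108.0 to 113.0 CPM). Suv39h2 was also not lower in 6KO1 (43.1 to 43.8 CPM) and was lowest in E1E2 G9Gl (14.0 to 14.6 CPM), which carries no mutation of it, so its level does not check the labels. A count over the whole of Setdb1 does not show the loss of 2 floxed exons and checks nothing there.

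The fibroblast label was checked against 10 markers, 9 of which had a mean of at least 1 CPM, while Lum was at 0 CPM in WT. Their summed level was 6610 to 8410 CPM in WT and 8460 to 9190 CPM in E1E2 G9Gl. It was 3680 to 4170 CPM in 6KO1, against 5530 to 5670 CPM for 6KO2. In WT this sum came mostly from Vim, Col1a2, Col1a1, Fn1 and Col3a1. Over all libraries, Thy1 ran from 0 to 16.8 CPM (WT mean 7.86) and Pdgfra from 0.0688 to 5.95 CPM (WT mean 5.09). Col1a2 ran from 307 to 2030 CPM (WT mean 1850), and Col3a1 reached 1940 CPM against a WT mean of 714. The sum therefore does not show that single fibroblast markers kept their level. Summed levels of 5 blood markers were 3.64 to 4.29 CPM in WT, 10.4 to 11.9 CPM in E1E2 G9Gl, 19.2 to 22.1 CPM in 6KO1 and 4.89 to 6.17 CPM in 6KO2, mostly from Cd68, the 1 of the 5 with a mean of at least 1 CPM (2.09 to 20.8 CPM over all libraries), and those of 4 muscle markers were 2.26 to 2.49, 13.0 to 13.5, 13.4 to 14.6 and 4.66 to 5.46 CPM in the same order. Blood and muscle sums were thus above those of WT in E1E2 G9Gl, where Cdkn2c and Cdkn2d were highest, as well as in 6KO1 and, by less, in 6KO2. In E1 S1S2 they were also above WT, at 4.33 to 5.66 and 3.97 to 4.21 CPM. Muscle sums were 4.2 to 4.55 CPM in E1E2. Of the other lists, 5 epithelial markers summed to 1.22 to 1.98 CPM in WT, 7.67 to 8.19 CPM in E1E2 G9Gl, 16.7 to 17.8 CPM in 6KO1 and 3.88 to 4.43 CPM in 6KO2, and 4 endothelial markers to 0.469 to 0.589, 2.66 to 3.47, 4.79 to 5.52 and 3.96 to 5.45 CPM. Epithelial sums were above WT in the other mutants too. They were 5.19 to 6.6 CPM in E1 and 4.82 to 7.04 CPM in E1E2. In E2 and E1 S1S2 they were 8.6 to 11.2 and 10.1 to 12.4 CPM. The 4 neural markers summed to 478.0 to 651.0 CPM in WT, 474.0 to 513.0 CPM in E1E2 G9Gl, 462.0 to 524.0 CPM in 6KO1 and 597.0 to 652.0 CPM in 6KO2, mostly from Nes. Neural sums were above WT in E1E2 (803.0 to 896.0 CPM) and E1 S1S2 (781.0 to 848.0 CPM). The 3 pluripotency markers stayed below 1 CPM in every condition. The part of all these markers in the results below was not tested. In bulk RNA, fewer cells of a type and less RNA per cell cannot be told apart.

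RefSeq promoter sequences (GRCm38.p6) were found for 7 of the 8 genes. The 250 bases before the start are shown for the genes that moved together in the comparisons below, Cdkn2a with Cdkn2b and Cdkn2c with Cdkn2d, and for Rbl1, in which an E2F motif was found. Capitals mark matches on either strand to an E2F motif (TTTCCCGC, TTTCGCGC, TTTGCCGC or TTTGGCGC) or to GGGCGG, the core of an SP1 site. Matches of the E2F and GGGCGG motifs do not overlap one another in these windows.
Cdkn2a, p19Arf start, chr4:89294620-89294869, minus strand: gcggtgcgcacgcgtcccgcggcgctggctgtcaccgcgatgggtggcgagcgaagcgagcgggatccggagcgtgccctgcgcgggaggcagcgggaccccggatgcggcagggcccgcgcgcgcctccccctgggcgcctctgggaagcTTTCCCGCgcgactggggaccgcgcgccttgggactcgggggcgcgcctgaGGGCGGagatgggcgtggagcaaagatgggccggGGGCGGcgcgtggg
Cdkn2a, p16Ink4a start, chr4:89282193-89282442, minus strand: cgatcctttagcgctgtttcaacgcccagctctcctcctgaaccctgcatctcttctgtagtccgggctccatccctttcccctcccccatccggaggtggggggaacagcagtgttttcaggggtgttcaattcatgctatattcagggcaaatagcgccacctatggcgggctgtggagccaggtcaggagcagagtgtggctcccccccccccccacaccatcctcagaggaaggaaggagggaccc
Cdkn2b, chr4:89311033-89311282, minus strand: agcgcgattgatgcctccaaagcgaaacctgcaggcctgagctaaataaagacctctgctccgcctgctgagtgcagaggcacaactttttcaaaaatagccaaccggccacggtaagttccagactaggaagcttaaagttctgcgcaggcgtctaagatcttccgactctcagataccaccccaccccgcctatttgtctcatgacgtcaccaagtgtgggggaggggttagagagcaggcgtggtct
Cdkn2c, upstream start, chr4:109666757-109667006, minus strand: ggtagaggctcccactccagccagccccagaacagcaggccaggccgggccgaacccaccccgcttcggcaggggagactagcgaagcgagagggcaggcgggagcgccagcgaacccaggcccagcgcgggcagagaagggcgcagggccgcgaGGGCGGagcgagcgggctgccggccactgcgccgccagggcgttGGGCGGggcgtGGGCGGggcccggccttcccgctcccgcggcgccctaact
Cdkn2d, chr9:21291210-21291459, minus strand: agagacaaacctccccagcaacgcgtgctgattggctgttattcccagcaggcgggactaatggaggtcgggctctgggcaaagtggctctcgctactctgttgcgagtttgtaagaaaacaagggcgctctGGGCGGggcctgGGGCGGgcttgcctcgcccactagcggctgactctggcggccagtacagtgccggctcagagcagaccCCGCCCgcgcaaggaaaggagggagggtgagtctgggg
Rbl1, chr2:157204535-157204784, minus strand: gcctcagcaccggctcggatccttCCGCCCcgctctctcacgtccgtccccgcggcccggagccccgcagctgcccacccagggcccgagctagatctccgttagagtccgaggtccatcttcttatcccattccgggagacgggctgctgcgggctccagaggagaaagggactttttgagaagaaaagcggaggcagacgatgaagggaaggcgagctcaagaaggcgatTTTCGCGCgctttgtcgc

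The p19Arf window and the Rbl1 window each held 1 E2F match, while the windows of Cdkn2b, Cdkn2c, Cdkn2d, Cdkn1b and Rbl2 and the p16Ink4a window held 0. Over all 32817 promoter windows of this length, 1.86% had an E2F match and 32.7% a GGGCGG match. GGGCGG occurred 3 times each before Cdkn2d and the upstream start of Cdkn2c, 2 times before the p19Arf start, and 0 times before Cdkn2b and the p16Ink4a start. Although the starts of p19Arf and p16Ink4a serve the same gene, the p19Arf window held 40 CpG dinucleotides and the p16Ink4a window 7, against a median of 6.0 over all windows. These are matches of letters and say nothing of binding.

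Per kilobase of exon, Cdkn2a had the highest level of the members in all 8 conditions, at 253.0 ± 35.2 CPM per kb in WT (SD, n = 3). In WT it was followed by Cdkn2b (40.9 ± 3.19), Cdkn2c (13.1 ± 0.243), Rbl1 (12.6 ± 0.442), Cdkn1b (7.92 ± 0.487), Rbl2 (5.79 ± 0.647), Cdkn2d (5.44 ± 1.16) and Rb1 (1.97 ± 0.158), all in CPM per kb. Cdkn2c and Rbl1 did not differ beyond their spread in this order, and neither did Rbl2 and Cdkn2d. The order changed in the compound mutants, where Cdkn2c and Cdkn2d came to 28.4 ± 0.514 and 24.3 ± 0.609 CPM per kb in E1E2 G9Gl, beside 26.8 ± 2.62 for Cdkn2b. Rb1, the lowest member in WT, reached 8.07 ± 0.443 CPM per kb in 6KO1, above Rbl2 (6.02 ± 0.0349) and not beyond the spread of Cdkn1b (7.33 ± 0.501).

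**Figure D1:**
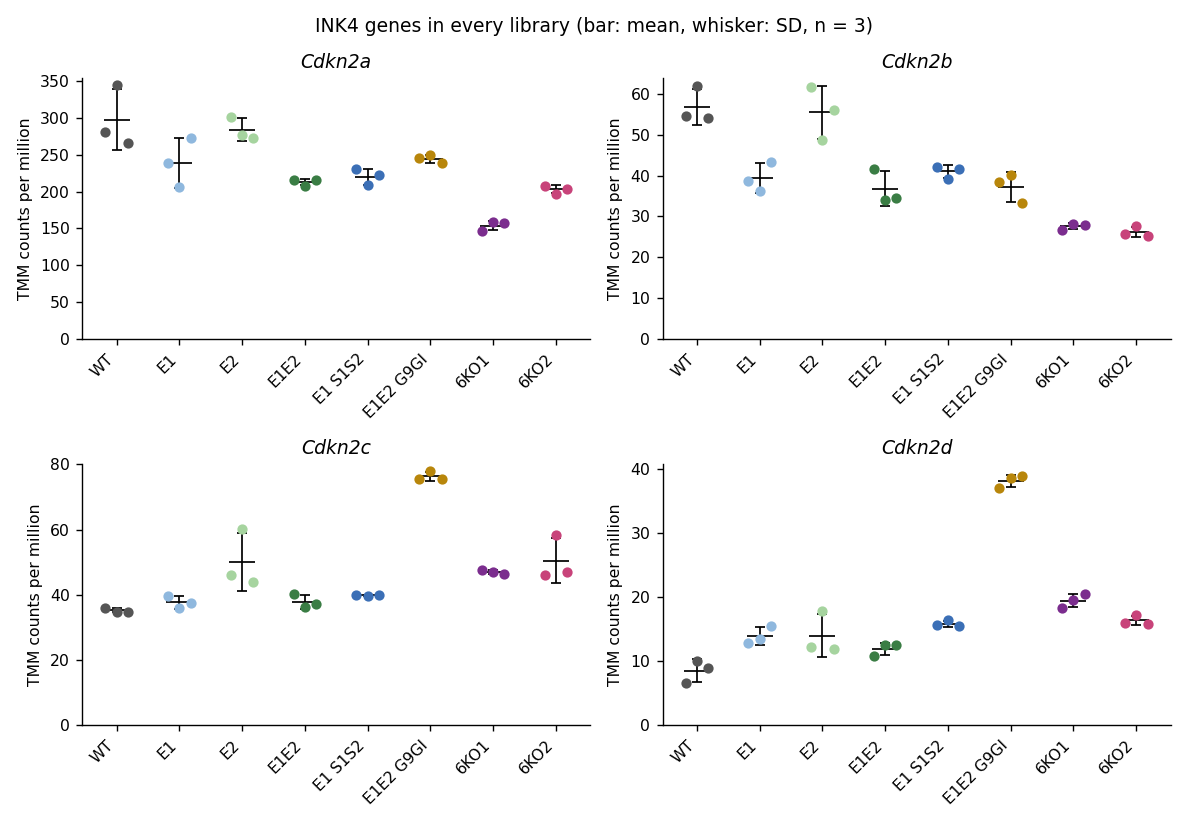
TMM-scaled CPM of Cdkn2a, Cdkn2b, Cdkn2c and Cdkn2d in every library of the 8 conditions, with 1 point per library, a bar for the mean and whiskers for the SD (n = 3). By mean, Cdkn2a and Cdkn2b lie lowest in the 6KO lines, whereas Cdkn2c and Cdkn2d lie highest in E1E2 G9Gl. The Cdkn2a libraries of 6KO2 overlap those of E1.

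The comparisons with WT asked how the members differ after loss of 1 to 6 of the enzymes. A gene passed the test at an adjusted p of at most 0.01 (edgeR quasi-likelihood test, Benjamini-Hochberg over all tested genes) and was called if it also differed at least 2-fold. In E1, 3 of the 8 members passed and 0 were called, where 13.3% of all tested genes passed and 4.26% were called. In E2 the counts were 5 and 0 (26.9% and 6.11% of all genes), in E1E2 again 5 and 0 (33.1% and 8.73%), and in E1 S1S2 5 and 0 (41.8% and 11.8%). In E1E2 G9Gl, 6 members passed and 3 were called (59.1% and 25.2%), in 6KO1 6 and 3 (66.3% and 30.9%), and in 6KO2 6 and 2 (54.5% and 20.7%). With 8 members, these shares lie near those of all tested genes in the compound mutants, so the counts alone are no result about the members. A fit to only the 6 libraries of each comparison passed 1 member in E1, 1 in E2 and 3 in E1 S1S2, so the small changes in those conditions rest on the spread estimated over all 24 libraries. All 5 that passed in E2 were higher, and in 6KO1 and 6KO2 3 were higher and 3 were lower.

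Cdkn2b was lower than in WT in every condition treated with 4-OHT. The change of its neighbour Cdkn2a was negative in each of them, but in E1 and E1E2 G9Gl it depended on single libraries. Cdkn2a (ENSMUSG00000044303, chr4:89274471-89294653, minus strand, GRCm38) was at 281.0, 344.0 and 266.0 CPM in the WT libraries, 147.0, 159.0 and 157.0 in 6KO1, and 208.0, 197.0 and 203.0 in 6KO2. All libraries of both 6KO lines lay below all WT libraries. The log2 fold change was -0.95 (SE 0.085, adjusted p = 9.6e-10) in 6KO1 and -0.55 (SE 0.085, adjusted p = 6.2e-06) in 6KO2, short of a 2-fold change in both. Cdkn2a was lower by a smaller amount in E1E2 (-0.48, adjusted p = 7e-05) and E1 S1S2 (-0.43, adjusted p = 0.00017). In E1 (238.0, 206.0 and 273.0 CPM) the libraries overlapped those of WT, and the change of -0.31 (adjusted p = 0.0095) was near the threshold. It did not pass without replicate 2 of WT (-0.19, adjusted p = 0.0684) or without replicate 1 or 2 of E1. In a fit to only the 6 libraries compared it was -0.3 (adjusted p = 0.207). In E1E2 G9Gl the change was -0.28 (adjusted p = 0.00539). It did not pass without replicate 2 of WT (-0.16, adjusted p = 0.0554) or without replicate 1 or 3 of E1E2 G9Gl. With only the 6 libraries compared it was -0.26 (adjusted p = 0.0424). In E2 Cdkn2a was at 284.0 ± 15.3 CPM against 297.0 ± 41.2 in WT (adjusted p = 0.585).

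The counts of Cdkn2a are for the whole gene. Of its 1172 exon bases, 277 belong to the p16Ink4a transcript alone, 320 to the p19Arf transcript alone and 575 to both, so a gene count does not separate them.

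Cdkn2b (ENSMUSG00000073802, chr4:89306299-89311039, minus strand), which encodes p15Ink4b, was at 54.6, 61.9 and 54.0 CPM in WT, 26.7, 28.1 and 27.9 in 6KO1, and 25.8, 27.6 and 25.1 in 6KO2. The 6KO libraries were the lowest of the series and did not overlap those of any other condition. It was 2.06-fold lower in 6KO1 (log2 fold change -1.04, SE 0.093, adjusted p = 6.9e-10) and 2.17-fold lower in 6KO2 (-1.12, SE 0.094, adjusted p = 4.9e-10). Without replicate 2 of WT, Cdkn2b in 6KO1 stood at -0.98 (adjusted p = 1.59e-09), short of the 2-fold threshold, and in 6KO2 at -1.05. Between WT and the 6KO lines lay E1 (39.4 ± 3.61 CPM), E1E2 (36.8 ± 4.27), E1 S1S2 (41.0 ± 1.55) and E1E2 G9Gl (37.2 ± 3.64), all of them lower than WT with adjusted p from 3.3e-06 to 0.00013. E2, the only mutant not given 4-OHT, was at 55.5 ± 6.49 CPM (adjusted p = 0.794).

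Within clone A4 both genes were lower after 4-OHT, by -0.41 for Cdkn2a (adjusted p = 0.001) and -0.59 for Cdkn2b (adjusted p = 5.6e-05) on the log2 scale. The difference from the effect of 4-OHT in E25 did not pass for Cdkn2a (-0.1, SE 0.12, adjusted p = 0.658) or Cdkn2b (-0.062, SE 0.13, adjusted p = 0.843). The deletion of Eset1 and 4-OHT itself cannot be told apart in this design. Both genes fell again from E1 S1S2 to 6KO1 (-0.51, adjusted p = 1.5e-05, and -0.57, adjusted p = 1.2e-05). From E1E2 G9Gl to 6KO2, Cdkn2b fell by 0.51 on the log2 scale (adjusted p = 8.5e-05), and Cdkn2a differed by -0.27 (adjusted p = 0.01005).

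Cdkn2c and Cdkn2d, which lie outside the Cdkn2a locus, moved the other way and peaked in the same line. Cdkn2c (ENSMUSG00000028551, chr4:109660876-109667189, minus strand), which encodes p18Ink4c, was at 36.0, 34.9 and 34.9 CPM in WT and at 75.6, 77.9 and 75.5 CPM in E1E2 G9Gl. No other condition reached that level. Its log2 fold change in E1E2 G9Gl was 1.11 (SE 0.091, adjusted p = 2e-10), and in 6KO1 and 6KO2 it was 0.42 and 0.52 (adjusted p = 0.00029 and 3.7e-05). In E2 it was 0.51 (adjusted p = 0.00012), with 46.0, 60.2 and 43.9 CPM, of which replicate 2 was the highest. In E1 (0.1), E1E2 (0.1) and E1 S1S2 (0.18) it did not pass, with adjusted p of 0.523, 0.381 and 0.112.

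Cdkn2d (ENSMUSG00000096472, chr9:21288410-21291407, minus strand), which encodes p19Ink4d, was the only member that passed in all 7 mutant conditions. It was at 6.57, 10.1 and 8.96 CPM in WT and at 37.1, 38.6 and 38.9 CPM in E1E2 G9Gl. The 6KO1 libraries had 18.4, 19.6 and 20.5 CPM, and those of 6KO2 had 16.0, 17.3 and 15.9 CPM. In all 7 conditions every library lay above every WT library. In a fit to only the 6 libraries compared, Cdkn2d did not pass in E1 (0.72, adjusted p = 0.0257), E2 (0.74, adjusted p = 0.0378) or E1E2 (0.51, adjusted p = 0.0423). It was 4.45-fold higher in E1E2 G9Gl (log2 fold change 2.15, SE 0.13, adjusted p = 1.1e-12), 2.27-fold higher in 6KO1 (1.18, SE 0.13, adjusted p = 3.7e-08) and 1.91-fold higher in 6KO2 (0.93, SE 0.14, adjusted p = 2.8e-06). The smallest change was that in E1E2 (0.48, adjusted p = 0.00628), which did not pass without replicate 1 of WT (0.33, adjusted p = 0.0479), without replicate 3 of WT (0.52, adjusted p = 0.0117) or without replicate 2 (0.45, adjusted p = 0.0258) or 3 (0.45, adjusted p = 0.0269) of E1E2.

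The rise of both genes was set against the steps of the second series of clones. From E1E2 to E1E2 G9Gl, Cdkn2c rose by 1.01 (SE 0.091, adjusted p = 1.4e-09) and Cdkn2d by 1.67 (SE 0.13, adjusted p = 9e-11) on the log2 scale, and Cdkn2c was just short of 2-fold without replicate 2 or 3 of E1E2 or replicate 2 of E1E2 G9Gl. From E1E2 G9Gl to 6KO2, which also lacks Suv39h1 and Suv39h2, they fell by 0.6 (adjusted p = 5.9e-06) and by 1.22 (adjusted p = 2.1e-08). The 6KO lines did not differ past the threshold in either gene (0.1, SE 0.09, adjusted p = 0.349, and -0.25, SE 0.13, adjusted p = 0.093). Over the 24 libraries Cdkn2c and Cdkn2d had a Pearson r of 0.87 on log2 CPM, and of 0.417 after the mean of each condition was taken out. For Cdkn2a and Cdkn2b the values were 0.862 and 0.643. These correlations share libraries and depth and are given as descriptions.

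Cdkn1b (ENSMUSG00000003031, chr6:134920401-134925513, plus strand) changed less. It was at 33.6, 36.8 and 37.9 CPM in WT, 49.8, 57.8 and 47.3 in E2, and 43.9, 47.6 and 43.8 in E1E2 G9Gl. E2 and E1E2 G9Gl lay above WT with no overlap, by 0.52 (SE 0.079, adjusted p = 1.6e-05) and 0.32 (SE 0.079, adjusted p = 0.00103) on the log2 scale. In E1, Cdkn1b also lay above WT with no overlap (40.9, 40.1 and 39.1 CPM) but did not pass (0.15, SE 0.079, adjusted p = 0.209). In the 6KO lines it was at 33.4 ± 2.28 and 34.8 ± 3.63 CPM, overlapping WT. The log2 fold change was -0.11 in 6KO1 (SE 0.079, adjusted p = 0.207) against -0.053 in 6KO2 (SE 0.08, adjusted p = 0.574).

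**Figure D2:**
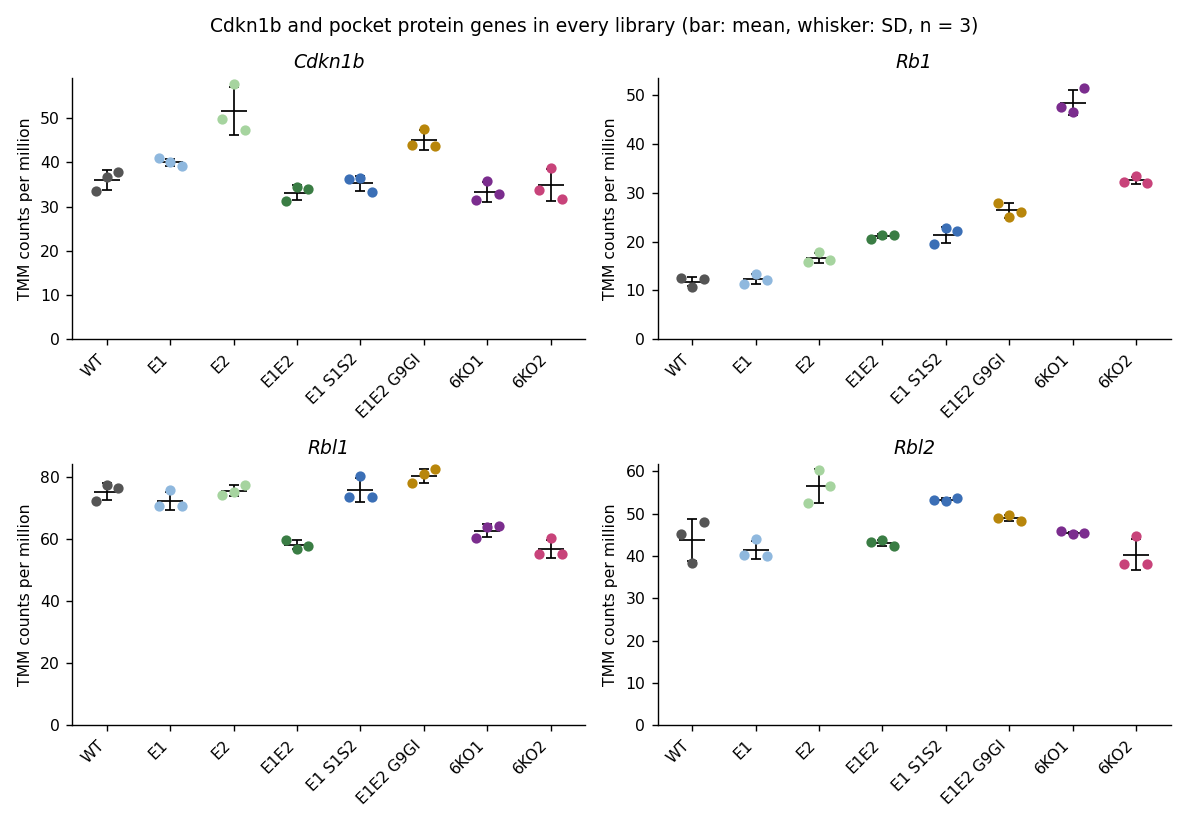
TMM-scaled CPM of Cdkn1b, Rb1, Rbl1 and Rbl2 in every library of the 8 conditions, with 1 point per library, a bar for the mean and whiskers for the SD (n = 3). Rb1 is lowest in WT and E1 and highest in 6KO1, while Rbl1 and Rbl2 move over a narrow range.

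Rb1 rose in 6 of the 7 mutant conditions and reached the largest level in the line that lacks all 6 enzymes by the first series. Rb1 (ENSMUSG00000022105, chr14:73183673-73325822, minus strand), the retinoblastoma gene, was at 12.5, 10.7 and 12.3 CPM in WT and at 11.4, 13.4 and 12.1 CPM in E1, and these overlapped. It was at 15.9, 17.9 and 16.2 CPM in E2, 20.6, 21.4 and 21.4 in E1E2, and 19.5, 22.7 and 22.1 in E1 S1S2. It was at 28.0, 25.1 and 26.1 CPM in E1E2 G9Gl, 32.2, 33.4 and 32.1 in 6KO2, and 47.6, 46.5 and 51.5 in 6KO1. Apart from E1E2 and E1 S1S2, which overlapped each other, and WT and E1, these groups of libraries were separate from one another.

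Rb1 was 4.1-fold higher than WT in 6KO1 (log2 fold change 2.04, SE 0.077, adjusted p = 1.5e-16), 2.76-fold in 6KO2 (1.46, SE 0.078, adjusted p = 1.7e-13) and 2.23-fold in E1E2 G9Gl (1.16, SE 0.079, adjusted p = 6.8e-12). In E1E2 and E1 S1S2 the log2 fold changes were 0.84 (adjusted p = 1e-08) and 0.86 (adjusted p = 3.5e-09), in E2 0.5 (adjusted p = 3.4e-05), and in E1 0.058 (adjusted p = 0.685). It also differed between the 6KO lines, with a log2 fold change of -0.57 in 6KO2 relative to 6KO1 (SE 0.072, adjusted p = 4e-07). It was higher after each of these steps: from E1 to E1 S1S2 by 0.8 (adjusted p = 1.5e-08), from E1 S1S2 to 6KO1 by 1.18 (adjusted p = 2.2e-12), from E2 to E1E2 by 0.34 (adjusted p = 0.00249), from E1E2 to E1E2 G9Gl by 0.32 (adjusted p = 0.00075), and from E1E2 G9Gl to 6KO2 by 0.3 (adjusted p = 0.00144). The step to 6KO2 did not pass without replicate 2 (0.25, adjusted p = 0.023) or 3 (0.27, adjusted p = 0.014) of E1E2 G9Gl. The step from E2 to E1E2 did not pass without replicate 1 (0.31, adjusted p = 0.0156) or 3 (0.32, adjusted p = 0.0132) of E2, without replicate 2 (0.33, adjusted p = 0.012) or 3 (0.33, adjusted p = 0.0122) of E1E2. It also did not pass in a fit to only those 6 libraries (0.33).

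Rbl1 (ENSMUSG00000027641, chr2:157145893-157204534, minus strand), which encodes p107, fell slightly in 3 conditions. It was at 72.4, 77.4 and 76.4 CPM in WT, 59.8, 56.9 and 57.8 in E1E2, 60.3, 63.9 and 64.2 in 6KO1, and 55.2, 60.3 and 55.2 in 6KO2. All 3 conditions lay below WT with no overlap, by -0.37 (SE 0.053, adjusted p = 4.3e-06), -0.26 (SE 0.052, adjusted p = 0.0001) and -0.41 (SE 0.053, adjusted p = 6e-07) on the log2 scale. In E1E2 G9Gl it stood at 80.5 ± 2.27 CPM (0.095, SE 0.052, adjusted p = 0.114).

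Rbl2 (ENSMUSG00000031666, chr8:91070057-91123844, plus strand), which encodes p130, was at 45.1, 38.4 and 47.9 CPM in WT, 52.5, 60.4 and 56.5 in E2, and 53.2, 53 and 53.7 in E1 S1S2. It was higher in E2 (0.37, SE 0.071, adjusted p = 0.00026) and in E1 S1S2 (0.28, SE 0.071, adjusted p = 0.00171), although in E1 S1S2 it did not pass without replicate 2 of WT (0.2, adjusted p = 0.0117). Its exons share 693 bases with those of Aktip on the opposite strand, where reads may have been assigned to either gene. In 6KO2 it was at 40.3 ± 3.72 CPM (-0.12, adjusted p = 0.149), and without replicate 2 of WT it passed as lower (-0.21, adjusted p = 0.00685). The pocket protein genes therefore gave 3 patterns, with Rb1 higher in both 6KO lines, Rbl1 lower in both and Rbl2 not past the test in either.

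**Figure D3:**
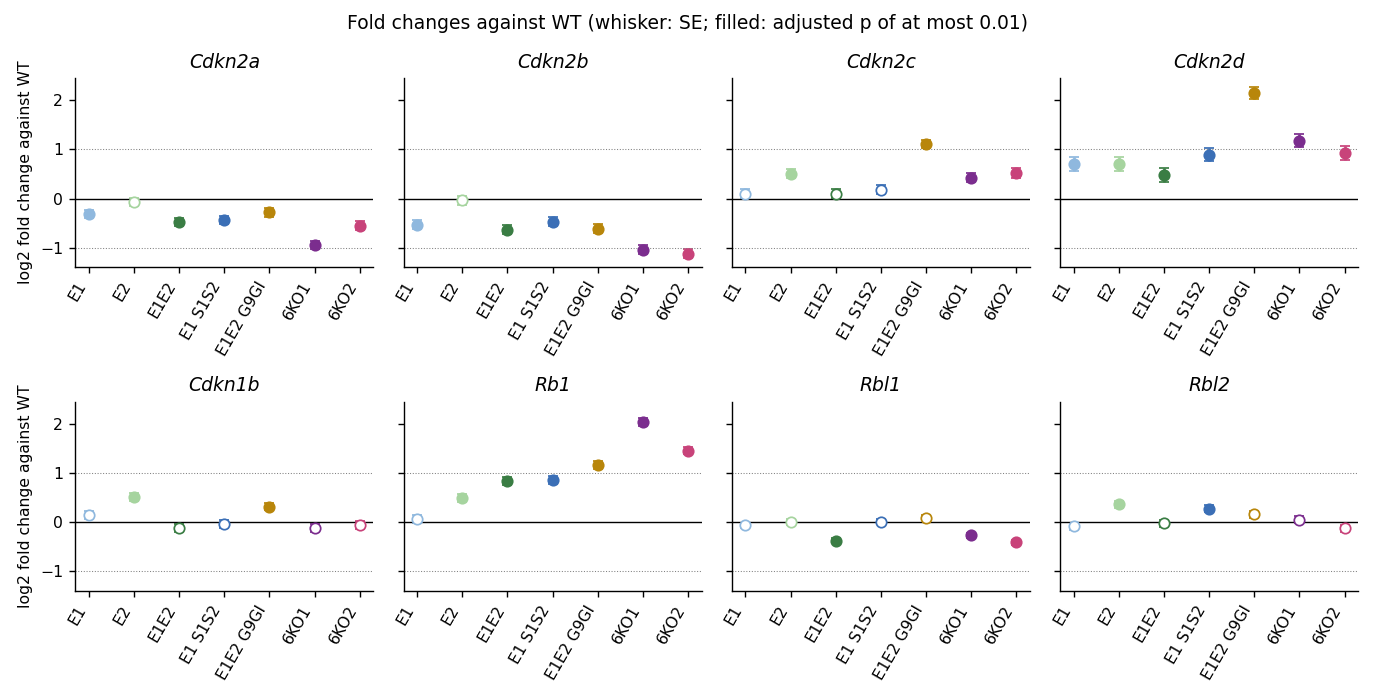
Log2 fold change against WT of the 8 members in the 7 mutant conditions (y axis, edgeR), with whiskers for the SE, filled points for an adjusted p of at most 0.01 and dotted lines at a 2-fold change. In 6KO1, Rb1 stands at 2.04 and Cdkn2b at -1.04. Cdkn2d peaks at 2.15 in E1E2 G9Gl.

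The successive lines were compared in the same fit, and the members' counts were read against all genes. After 4-OHT in clone A4 (E1E2 against E2), 7 of the 8 members passed and 0 were called, where 11.9% of all tested genes passed and 2.97% were called. Of these 7 members, 6 were lower after 4-OHT and Rb1 was higher, and replicate 2 of E2 was the highest E2 library for Cdkn2c, Cdkn2d, Cdkn1b, Rb1 and Rbl2. Without it Cdkn2c (-0.4, adjusted p = 0.00256) went to -0.25 (adjusted p = 0.0354). Cdkn2c also did not pass without replicate 2 or 3 of E1E2, or in a fit to only the 6 libraries compared (-0.41, adjusted p = 0.0258). From E1 to E1 S1S2, 2 passed and 0 were called (33.5% and 8.06% of all genes), namely Rb1 and Rbl2. From E1 S1S2 to 6KO1, 5 passed and 1 was called (53.4% and 21.3%). Of these 5, Rbl2 (-0.23, adjusted p = 0.00729) did not pass when any 1 of their libraries was left out (highest adjusted p = 0.0205). From E1E2 to E1E2 G9Gl, 5 passed and 2 were called (53.4% and 21.6%). From E1E2 G9Gl to 6KO2, 7 passed and 1 was called (43.6% and 16.3%), 6 of the 7 lower. Between the 6KO lines, 2 passed and 0 were called (49.2% and 16.9%), namely Cdkn2a, 0.39 higher in 6KO2 on the log2 scale (adjusted p = 0.00036), and Rb1.

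The effect of 4-OHT in A4 differed from that in E25 for 4 of the 8 members, at an adjusted p of at most 0.01 for the difference itself, where 8.88% of all tested genes passed. Cdkn1b had the lowest adjusted p. Its level went with 4-OHT from 36.1 ± 2.22 to 40.0 ± 0.895 CPM in E25 and from 51.7 ± 5.49 to 33.2 ± 1.64 CPM in A4, a difference of effects of -0.79 (SE 0.11, adjusted p = 2.2e-05). For Cdkn2d, the level went with 4-OHT from 8.55 ± 1.82 to 14.0 ± 1.43 CPM in E25 and from 14.0 ± 3.34 to 12.0 ± 0.939 CPM in A4 (-0.94, SE 0.19, adjusted p = 0.00122). Rbl1 was at 75.4 ± 2.65 and 72.4 ± 2.94 CPM without and with 4-OHT in E25 and at 75.7 ± 1.72 and 58.2 ± 1.48 CPM in A4 (-0.32, SE 0.074, adjusted p = 0.0039), and it did not pass without replicate 1 of WT (-0.29, adjusted p = 0.0109), replicate 2 of E1 (-0.29, adjusted p = 0.0145), replicate 3 of E2 (-0.31, adjusted p = 0.011), or replicate 2 (-0.31, adjusted p = 0.014) or 3 (-0.32, adjusted p = 0.0111) of E1E2. The fourth, Cdkn2c, was near the threshold (-0.5, SE 0.13, adjusted p = 0.00968). Without replicate 2 of E2 it was -0.34 (adjusted p = 0.0309). The count of 4 members fell to 2 without replicate 1 of WT, replicate 2 of E1, or replicate 2 or 3 of E1E2.

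Other genes of the pathway were taken from 10 lists with 99 symbols, 98 of them tested. Their counts of called genes stand beside 30.9% of all tested genes called in 6KO1 and 20.7% in 6KO2. Of the other CIP/KIP inhibitors, Cdkn1a was called in 4 of the 7 mutant conditions and Cdkn1c in 3, whereas Cdkn1b was called in 0. Cdkn1a, which encodes p21, a p53 target, was at 8.28 ± 0.279 CPM in WT, 38.3 ± 0.889 in E1E2, 41.4 ± 1.06 in 6KO2, 34.0 ± 1.15 in E1 S1S2 and 130.0 ± 2.62 in 6KO1. Its log2 fold change was 3.97 (SE 0.067, adjusted p = 7.3e-23) in 6KO1 and 2.32 (SE 0.066, adjusted p = 1.6e-18) in 6KO2, while in E1E2 G9Gl it was 0.19 (adjusted p = 0.0267). The E1E2 G9Gl level, 9.46 ± 0.203 CPM, was the closest to WT among the compound mutants, and this was the line in which Cdkn2c and Cdkn2d were highest. Cdkn1c, which encodes p57, was 1.19 higher in E1 and 1.22 higher in E1E2 on the log2 scale (adjusted p = 1.7e-10 and 5.6e-11), at 0.11 in 6KO1 (adjusted p = 0.251) and lower in 6KO2 (-2.19, SE 0.099, adjusted p = 8.6e-15).

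In the list of p19Arf and p53 partners, 4 genes were tested, of which 1 was called higher and 1 lower in 6KO1. Mdm2, which degrades p53 and is also its target, was higher in 6KO1 (1.23, adjusted p = 6.1e-17) and, in E1E2, by 1.12 (adjusted p = 4.2e-15), and in 6KO2 it rose by less (0.79, adjusted p = 4.1e-13). Npm1, a nucleolar partner of p19Arf, was lower in both 6KO lines (-1.76 and -1.24, adjusted p = 2.3e-10 and 1e-07), but its WT libraries varied widely, at 1320 ± 462.0 CPM (SD).

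**Figure D4:**
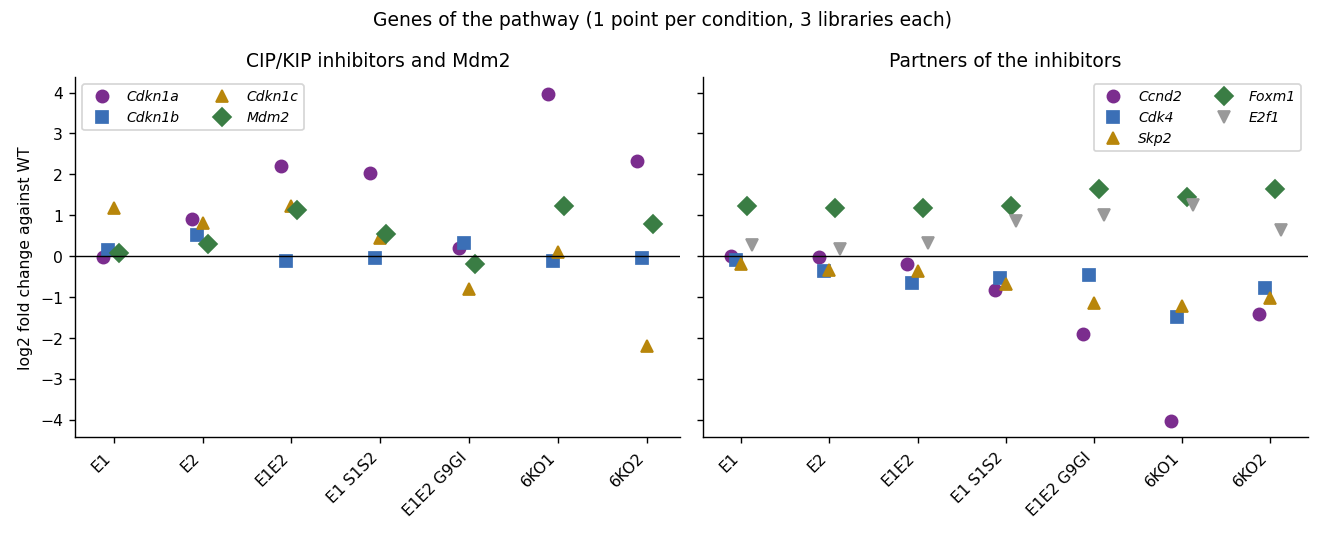
Log2 fold change against WT (y axis, edgeR) of CIP/KIP inhibitors with Mdm2 and of genes that act with the members, with 1 point per mutant condition (3 libraries against 3). Cdkn1a stands at 3.97 and Ccnd2 at -4.03 in 6KO1, while Cdkn1b stays between -0.12 and 0.52.

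Of the D cyclins with Cdk4 and Cdk6, the targets of the INK4 proteins, 0 of 5 were called higher and 3 lower in 6KO1, and 0 and 1 in 6KO2, with a list median of -1.11 and -0.38 on the log2 scale beside medians over all tested genes of 0.061 and 0.041. Ccnd2, which encodes cyclin D2, fell from 300.0 ± 21.0 CPM in WT to 18.3 ± 0.724 in 6KO1 (log2 fold change -4.03, adjusted p = 8.8e-24) and to 113.0 ± 1.53 in 6KO2 (-1.4, adjusted p = 2.8e-16). Cdk4 fell from 577.0 ± 73.5 to 206.0 ± 7.91 CPM in 6KO1 (-1.48, SE 0.071, adjusted p = 9.5e-15) and, by less than 2-fold, to 336.0 ± 7.08 CPM in 6KO2 (-0.78, adjusted p = 1.4e-09).

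Among 14 cyclins E, A and B with their kinases and regulators, 0 were called higher and 2 lower in 6KO1 (0 and 1 in 6KO2). Of all tested genes, 30.9% were called in 6KO1 and 20.7% in 6KO2. Cdk1, the mitotic kinase, had -1.11 in 6KO1 (adjusted p = 8e-10) and -0.63 in 6KO2 (adjusted p = 7e-06), and Cdk7, a kinase that activates other Cdks, -1.14 (adjusted p = 3e-11) and -0.87 (adjusted p = 5.3e-09). Both were called in 6KO1 and neither in 6KO2, where the gene called lower was another of the list. Of 21 E2F target genes, which pocket proteins repress, 0 were called higher and 1 lower in each 6KO line. In 6KO1 the called gene was Cdk1, which is on both lists, and in 6KO2 it was another of these targets. At any fold, 5 passed as higher and 9 as lower in 6KO1 (median -0.17), and 2 and 12 in 6KO2 (median -0.29). That makes 14 of 21 in each line, where 66.3% of all tested genes passed in 6KO1 and 54.5% in 6KO2. Of the 10 E2F and DP genes, 1 was called higher and 1 lower in 6KO1: E2f1, an activator, rose from 15.5 ± 3.09 to 36.9 ± 3.2 CPM (1.25, adjusted p = 1.9e-10), and E2f4, which works mainly as a repressor with pocket proteins, fell from 80.6 ± 5.35 to 36.6 ± 2.64 CPM (-1.14, adjusted p = 1.1e-13).

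Of 7 genes of the MuvB complex and its partners, 1 was called, higher, in each of the 7 conditions. Over all tested genes, 4.26% to 30.9% were called in these conditions. MuvB represses cell cycle genes when bound to Rbl1 or Rbl2 and activates mitotic genes when bound to B-Myb and Foxm1. The called gene was Foxm1, one of the activators, at 60.9 ± 9.95 CPM in WT and 165.0 ± 13.8 and 190.0 ± 9.22 CPM in 6KO1 and 6KO2 (1.44 and 1.65, adjusted p = 5.2e-13 and 1e-13). Among 10 genes of p27 turnover, Skp2, the F-box protein that targets p27 for degradation, fell from 117.0 ± 5.13 CPM to 50.3 ± 1.23 in 6KO1 (-1.22, adjusted p = 1.9e-15) and to 57.6 ± 1.21 in 6KO2 (-1.02, adjusted p = 1e-13). Foxo1, an activator of Cdkn1b, was higher in 6KO1 (1.71, adjusted p = 6.3e-11) and less so in 6KO2 (0.65, adjusted p = 0.00024). Cdkn1b itself did not pass in either line. In E1E2 G9Gl, Skp2 was lower (-1.15, adjusted p = 6.4e-15), Foxo1 was higher (1.65, adjusted p = 1.6e-10) and Cdkn1b was higher (0.32, adjusted p = 0.00103). Of 10 pocket protein partners, 1 was called in 6KO1, Hdac2, a histone deacetylase, which was lower (-1.14, adjusted p = 8e-13). Of all tested genes, 30.9% were called there.

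Of 19 regulators of the Cdkn2a locus, 4 were called higher and 1 lower in 6KO1, and 3 and 1 in 6KO2. Of all tested genes, 30.9% and 20.7% were called in these lines, so the counts alone are no result about the list. At any fold, 4 passed as higher and 8 as lower in 6KO1, and 7 and 7 in 6KO2. The genes named next were those called in both 6KO lines in the same direction, all of them higher. The genes that passed as lower are not named, so the named ones do not stand for the list. Tbx2, a repressor of p19Arf, rose from 0.536 ± 0.284 CPM to 6.99 ± 1.16 in 6KO1 (3.73, adjusted p = 1.9e-12) and to 2.42 ± 0.123 in 6KO2 (2.2, adjusted p = 2.4e-07). It was also higher in E1E2 (2.54, adjusted p = 3.8e-08) and E1 S1S2 (2.2, adjusted p = 2.5e-07). In E1 (0.95, adjusted p = 0.0273), E2 (0.7, adjusted p = 0.0895) and E1E2 G9Gl (0.55, adjusted p = 0.148) it did not pass. Id1, which opposes the induction of p16Ink4a by Ets factors, rose from 8.43 ± 0.773 to 55.8 ± 1.09 CPM in 6KO1 (2.72, adjusted p = 1.6e-13) and to 39.1 ± 5.93 CPM in 6KO2 (2.21, adjusted p = 1.5e-11). Id1 was also higher in E1 (1.3, adjusted p = 8e-07) and E1E2 G9Gl (2.02, adjusted p = 4.3e-11). In E2 (0.45, adjusted p = 0.0284), E1E2 (0.18, adjusted p = 0.402) and E1 S1S2 (0.19, adjusted p = 0.329) it did not pass. Cbx7, a Polycomb protein that represses the locus, was low in WT (0.325 ± 0.0311 CPM) and was called higher in 6 conditions, among them 6KO1 (1.15, adjusted p = 0.00079), 6KO2 (2.29, adjusted p = 3.6e-08) and E1E2 G9Gl, at 6.28 ± 0.77 CPM (4.25, adjusted p = 1.5e-14). Cbx7 was also higher in E2 (2.81, adjusted p = 2.2e-09), and in E1 S1S2 it was at -0.52 (adjusted p = 0.306). Whether any of these regulators bears on the levels of Cdkn2a and Cdkn2b was not tested.

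The genes beside the members on the chromosome were compared with them. Mtap, the next protein-coding gene tested below Cdkn2a on chromosome 4 (chr4:89137122-89181081), had log2 fold changes of -0.84 in 6KO1, -0.46 in 6KO2 and -0.73 in E1E2 G9Gl (adjusted p = 7.8e-08, 0.00033 and 7.8e-07). In E1, E1E2 and E1 S1S2, where Cdkn2b was lower, Mtap did not pass (-0.032, -0.14 and -0.16, adjusted p = 0.881, 0.248 and 0.195). On the other side, Dmrta1 was weakly expressed in WT (0.47 CPM), with 2.01 in E1 (adjusted p = 2e-07) and -0.85 in 6KO2 (adjusted p = 0.0525), and Zfp352, beyond it, was at 0.012 CPM in WT and higher in 6KO1 (5.72, adjusted p = 3.9e-07) and 6KO2 (4.55, adjusted p = 0.00014). At such a low WT level these fitted fold changes depend on the prior count.

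Of the 4 neighbours of Rb1, 3 moved against it in the 6KO lines. Rcbtb2, which overlaps its end on the opposite strand, fell in every mutant condition, from -0.38 in E1 (adjusted p = 0.00013) to -1.69 in 6KO1 (adjusted p = 5.1e-16) and -1.25 in 6KO2 (adjusted p = 2.2e-13). Lpar6, which lies within Rb1 on the opposite strand, fell as well, with -1.88 in 6KO1 (adjusted p = 1.1e-09) beside -1.02 in 6KO2 (adjusted p = 1.1e-05). Exons of Lpar6 and Rcbtb2 share 408 and 488 bases with the 6015 exon bases of Rb1. The libraries were stranded but the strand setting of the counting is not given in the sources used here, so reads in these stretches may have been assigned to either gene. On the other side, Itm2b was higher in 6KO1 (0.74, adjusted p = 6.4e-09) and 6KO2 (0.41, adjusted p = 5.4e-05), and Med4 was lower (-1.01 and -0.42, adjusted p = 1.3e-09 and 0.0004).

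**Figure D5:**
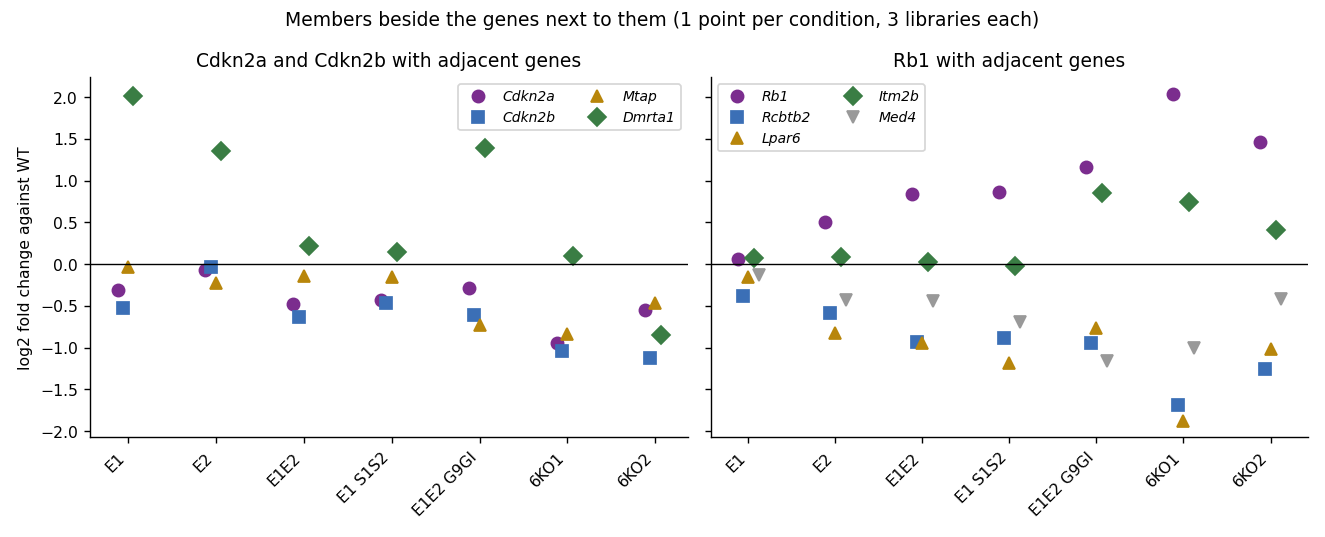
Log2 fold change against WT (y axis, edgeR) of Cdkn2a and Cdkn2b and of Rb1 beside their neighbouring genes, with 1 point per mutant condition (3 libraries against 3). In 6KO1 Rb1 stands at 2.04, with Rcbtb2 at -1.69 and Lpar6 at -1.88 inside or overlapping it.

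Around Cdkn2c, Rnf11 was higher by 0.92 in E1E2 G9Gl and by 0.91 in 6KO2 on the log2 scale (adjusted p = 1.2e-12 and 3.2e-12), and Ttc39a, at 2.54 CPM in WT, was higher in E1E2 G9Gl (1.8, adjusted p = 5.6e-09). Faf1, the nearest gene, differed by 0.18 in that line (adjusted p = 0.00379), and Dmrta2 by -0.17 (adjusted p = 0.19). Ttc39a was also higher in 6KO1 (1.89, adjusted p = 1.6e-09), 6KO2 (1.25, adjusted p = 3.3e-06), E2 (1.5, adjusted p = 7.5e-07) and E1 S1S2 (0.88, adjusted p = 0.00033). It did not pass in E1 (0.39, adjusted p = 0.177) or E1E2 (0.5, adjusted p = 0.0392). Around Cdkn2d, the differences in E1E2 G9Gl were 0.48 for Atg4d, -0.29 for Kri1 and 0.39 for Slc44a2 (adjusted p = 1.1e-05, 0.00033 and 4.6e-06), each smaller than the 2.15 of Cdkn2d.

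For each member, the genes with the most similar pattern were found by Pearson r of log2 CPM over the 24 libraries. Rb1 had the closest matches, Zfyve1 (r = 0.97), Vopp1 (0.963) and Chmp4c (0.962). Cdkn2a was followed most closely by Tecr (0.945), Mapk12 (0.944) and Gm8203 (0.935), and Cdkn2b by Mvd (0.934), Swap70 (0.928) and Gm3571 (0.925). The matches of Cdkn2c were Lgals2 (0.951), Prss27 (0.942) and Akap6 (0.936), and those of Cdkn2d were Gm10639 (0.943), Tspan17 (0.94) and Acsl5 (0.937). Rbl1 was followed by Rab28 (0.915), Strbp (0.899) and Zbtb24 (0.893), and Rbl2 by Rarg (0.859), Golgb1 (0.859) and Zfp217 (0.857). Cdkn1b had the loosest matches, Hmgxb4 (0.831), Hoxa9 (0.822) and Gopc (0.814). Among the members, Rb1 ran opposite to Cdkn2a (-0.825) and Cdkn2b (-0.807). The libraries of a condition share a clone, so these values describe the 8 conditions more than 24 separate points.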

How the data were processed

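RNA from 24 mouse embryonic fibroblast cultures was sequenced as paired, stranded total RNA libraries. The authors trimmed reads with cutadapt 1.8.1, aligned them to GRCm38 with STAR 2.5.2b, and counted genes and repeats with TEtranscripts, and they deposited whole-number counts without normalization. The strand setting of counting is not given in the sources used here. Conditions came from sample titles. From the 47937 gene rows, with 1445 repeat rows and 1 malformed row left out, filterByExpr by condition kept 18565 genes. TMM scaling and two-sided quasi-likelihood tests were done in edgeR 4.0.16 (R 4.3.3, limma 3.58.1), in a single fit of the 24 libraries by condition, with Benjamini-Hochberg adjustment over genes. Calls required at least a 2-fold change at an adjusted p of at most 0.01. Steps were tested on simulated data. Alternatives were DESeq2 1.42.0, RLE factors, no filter, factors from genes and repeats together, only the 6 libraries compared, a replicate block, and each library left out. Levels per length used the exon union of GENCODE vM21. Named genes were all 8 members, Cdkn1a and Cdkn1c, listed genes called in both 6KO lines in 1 direction or among the 2 largest called changes of their list in 6KO1, the 2 nearest tested protein-coding genes on each side of a called member, and the 3 genes most correlated with each member. A neighbouring gene is not reported here. Targeted genes and cell type markers were named as checks. The members and lists were chosen with earlier results of these data known. Figures were drawn with matplotlib 3.10.9.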

Additional observations from a re-analysis of the deposited data

Results flagged for a closer look

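The effect of 4-OHT differed between the lines E25 and A4 by the test of the difference itself for 4 members (edgeR, adjusted p of at most 0.01). On the log2 scale, the effect in A4 minus that in E25 was -0.5 for Cdkn2c, -0.94 for Cdkn2d, -0.79 for Cdkn1b and -0.32 for Rbl1. Cdkn2c and Rbl1 did not pass under every library left out, with highest adjusted p of 0.0309 and 0.0145. Groups of 3 libraries are too small for a test of single outlying samples.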

How the results depend on the processing

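Of 68 single comparisons of members that passed the test, 51 passed under every alternative run and 17 were lost under at least 1. With only the 6 libraries compared, 12 comparisons were lost and 5 gained, and the count of members past the test was 1 in E1, 1 in E2 and 3 in E1 S1S2, against 3, 5 and 5 with all libraries; that fit has fewer samples to estimate the spread. The replicate numbers name samples and do not pair them, since correlations of same-numbered libraries ran from -0.291 to 0.24. With a replicate block, Cdkn2a in E1 was lost (-0.31, adjusted p = 0.0134), 111 of 112 comparisons kept their side and direction, and 4 members passed for the difference of the 4-OHT effect, as without the block. DESeq2 gained 1 comparison and lost 0. Factors that include repeats left 1 member called from E1E2 to E1E2 G9Gl, since Cdkn2c lies near a 2-fold change there.

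With 1 library left out at a time, or with replicate 2 of WT and of E2 left out together (added after seeing the data), 1 to 2 members were called from E1E2 to E1E2 G9Gl, 0 to 1 in E1 S1S2 (Cdkn2d without replicate 2 of WT, at 1.03), 2 to 4 in 6KO1 (Cdkn2b at -0.98 without replicate 2 of WT, Cdkn2a at -1.02 without replicate 3), 2 to 3 in 6KO2 (Cdkn2d at 1.07 without replicate 2 of WT), and 2 to 4 members passed for the 4-OHT difference. Direction changed in 15 comparisons, none of which had passed, and their ranges with libraries left out were as follows. In E2, Cdkn2a ran from -0.14 to 0.071, Cdkn2b from -0.12 to 0.12 and Rbl1 from -0.022 to 0.029. In E1, Rb1 ran from -0.0078 to 0.11, and in E1E2, Rbl2 from -0.11 to 0.048. In E1 S1S2, Cdkn1b ran from -0.08 to 0.0089 and Rbl1 from -0.033 to 0.033, in 6KO1 Rbl2 from -0.033 to 0.12, and in 6KO2 Cdkn1b from -0.14 to 0.0084. For the 4-OHT difference, Cdkn2a ran from -0.24 to 0.0047 and Cdkn2b from -0.22 to 0.02. Between lines, Cdkn2b ran from -0.001 to 0.13 from E1 to E1 S1S2 and from -0.042 to 0.11 from E1E2 to E1E2 G9Gl, and between the 6KO lines Cdkn2c ran from -0.013 to 0.16 and Cdkn1b from -0.024 to 0.12. Cdkn2b from E1E2 to E1E2 G9Gl came to -0.01 when the factors included repeats, and Cdkn1b in E1 S1S2 was 0.0064 with only the 6 libraries compared. Without length, the order of the members in WT changes: Rbl1 is second and Cdkn2d last.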
